A study of Mus musculus and Homo sapiens with 22 samples.

Results

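Binary alternative splice-site variations are places where 1 exon was joined to 1 other exon in 2 ways that differ only in the exact splice site. The authors' deposited table of MAJIQ, a program that reads the use of splice junctions from RNA sequencing, held 107827 local splicing variations at 96 h, and 3859 of them were of this kind. They were taken as the rows with 2 junctions, no retained intron, and both junctions joining the same pair of exons. Among the others, 19553 were binary exon skipping, 12935 had more than 2 junctions and 71480 included a retained intron.

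The cells were tau biosensor cells of the HEK293 line, which comes from human embryonic kidney. Cells of both groups made the tau repeat domain with the P301S change fused to CFP and to YFP, so the model is a single line with a fragment of tau in place of the full protein. In the tau aggregate group (n = 3 libraries), aggregates had been seeded by transfecting clarified mouse brain homogenate (200 ug, with lipofectamine), and cells were taken at 96 h. In the mock group (n = 3 libraries), cells had been mock transfected for the same time. The protocol names both WT and P301S tau homogenate, and the labels do not say whether mock cells received the WT one or reagent alone. Each replicate was 1 plate, and the libraries were primed at random. The whole series holds 22 samples in 10 groups, which also cover sorted aggregates and mouse brain and were not used for these splicing values.

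The spliceosome picks a 5′ splice site at the start of an intron and a 3′ splice site at its end, mostly by the short sequences at those places, which U1 snRNP and the U2AF and SF1 proteins recognize first. When a pair of usable sites lies close together, the choice adds or removes a stretch of exon. Pairs of 3′ sites that lie 1 codon apart, known as NAGNAG acceptors, add or remove a single amino acid where they fall in coding sequence. SR proteins and hnRNPs shift such choices, and many SR proteins are kept in nuclear speckles.

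Each value below is an expected PSI (percent spliced in, given from 0 to 1) that the authors' table holds for a whole group. It holds no value per library, so no spread between the 3 libraries can be shown and no test over samples was possible. The error measure used here is the table's own probability that PSI changed by at least 0.2 between the groups. PSI is given for the long-exon form throughout, the junction with the shorter intron, which uses the upstream 3′ site or the downstream 5′ site. The expected change is the table's own estimate for tau aggregate minus mock cells, which is often smaller than the difference of the 2 PSI values. The number of reads behind a PSI is unknown. Whether a site lies in coding sequence or a UTR was not annotated in the files, and no human genome sequence was at hand to print the splice sites.

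The line was checked in total RNA of biosensor cells that had been given 200 ug of homogenate and taken at 24 h (n = 2 libraries), since the 96 h tables give no gene levels. All 6 HEK293 markers were present, with VIM at 197 and 190 FPKM and PAX2, the lowest, at 2.65 and 2.26 FPKM. Of 12 markers of neurons, astrocytes, oligodendrocytes and microglia, SYT1 was the highest at 3.49 and 3.65 FPKM, and C1QA and P2RY12 were listed at 0 in both libraries.

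Most of these variations were choices of the 3′ site. In 2363 of 3859 (61.2%) only the 3′ site differed, in 1307 (33.9%) only the 5′ site differed, and in 189 (4.90%) both ends did. They lay in 2816 genes, of which 704 held more than 1. CACNA1H, a voltage-gated calcium channel, and HERC1, a large ubiquitin ligase, held 8 each. Symbols were given by the authors' intron table for 2581 of the 2816 genes, and 3479 of the 3573 variations in these genes were in protein-coding ones.

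The distance between the sites had a sharp pattern. Of the 3′ site pairs, 378 of 2363 (16.0%) were 3 bases apart, the spacing of NAGNAG acceptors, followed by 133 at 4 bases and 83 at 5 bases. Of the 5′ site pairs, 102 of 1307 (7.80%) were 4 bases apart, against 25 at 3 bases. The median distance was 23 bases for 3′ sites and 37 bases for 5′ sites, and the longest distances were 4905 and 1797 bases.

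**Figure D1:**
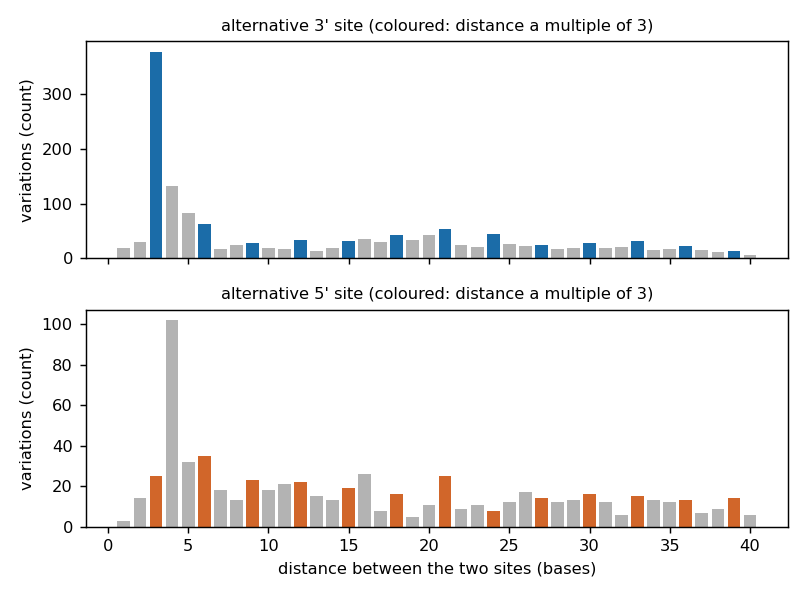
Number of variations (vertical axis) at each distance of 1 to 40 bases between the alternative sites (horizontal axis), for 3′ sites above and 5′ sites below; coloured bars are distances that are multiples of 3. The 3′ sites peak at 3 bases with 378 variations and the 5′ sites at 4 bases with 102.

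Which site of a pair was the main one went with the distance. At 3 bases the upstream 3′ site had the larger share in 263 of 378 pairs in tau aggregate cells and also in 263 in mock cells (69.6%). At 4 bases it had the larger share in 120 of 133 pairs and at 5 bases in 76 of 83, with the same counts in both groups. At 13 to 30 bases the order was the other way round, with the upstream 3′ site ahead in 173 of 525 pairs in tau aggregate cells and 174 in mock cells. The order did not move steadily with distance. At 31 to 60 bases the upstream 3′ site was ahead in 263 of 423 pairs in both groups. At 61 to 120 bases it was ahead in 169 of 325, again in both groups. Beyond 120 bases it was ahead in 94 of 248 pairs in tau aggregate cells and 93 in mock cells. For 5′ sites 4 bases apart, the downstream site was ahead in 33 of 102 pairs in tau aggregate cells and 32 in mock cells.

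Among 3′ sites, pairs 3 bases apart were also the most evenly used. The less used 3′ site reached a PSI of 0.1 in at least 1 group in 221 of 378 of them (58.5%), against 14 of 133 (10.5%) at 4 bases and 69 of 525 (13.1%) at 13 to 30 bases. The median PSI of the upstream site at 3 bases was 0.7895 in tau aggregate cells and 0.792 in mock cells. RBM8A, a core protein of the exon junction complex, was near this level with 0.761 in tau aggregate cells and 0.747 in mock cells.

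Distances that are multiples of 3, which keep the reading frame where the sites lie in coding sequence, were most common where both sites were well used. Among 3′ sites they made up 238 of 547 pairs (43.5%) whose less used site stayed under 0.01, and 206 of 270 (76.3%) where it reached 0.2. The share did not climb steadily, and between these ends it was 40.02%, 44.8% and 50.4% for a less used site of 0.01 to 0.05, 0.05 to 0.1 and 0.1 to 0.2. With the 3-base pairs left out, the shares over the same 5 classes were 41.2%, 34.2%, 34.5%, 30.9% and 50.4%, so that only the class of at least 0.2 was above the class under 0.01. Among 5′ sites they were 38.5% (101 of 262), 34.8%, 34.8%, 38.3% and 50.4% (67 of 133), again with only the last class above the first. These shares describe the variations and were not tested.

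**Figure D2:**
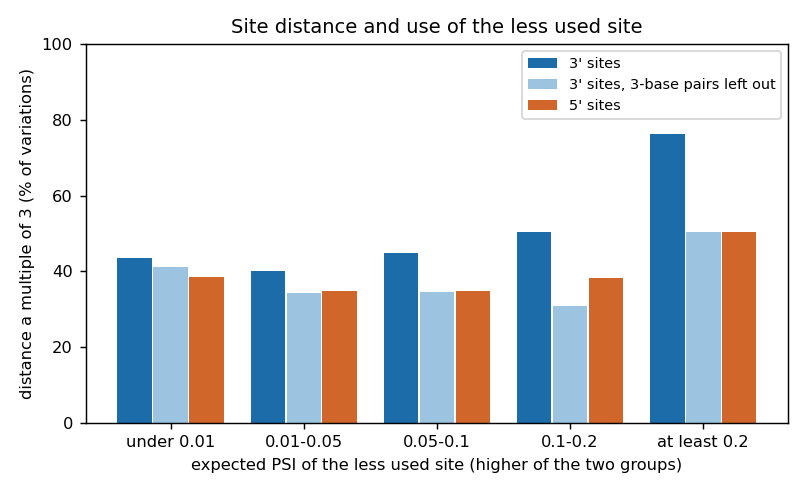
Share of variations whose sites lie a multiple of 3 bases apart (vertical axis, %), by the expected PSI of the less used site, taking the higher of both groups (horizontal axis). Dark blue is 3′ sites, light blue 3′ sites without the 3-base pairs, orange 5′ sites; at a PSI of at least 0.2 the values are 76.3%, 50.4% and 50.4%.

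The comparison of tau aggregate with mock cells addressed whether splice-site choice differs once aggregates have formed. No variation of this kind passed the call used here, an expected change of at least 0.1 with a probability of at least 0.95: 0 of 3859 were called, where 124 of all 107827 variations (0.115%) and 14 of 19553 binary exon-skipping ones (0.0716%) were. The highest probability of any was 0.892. The probability refers to a change of at least 0.2, so a change of 0.1 to 0.2 could hardly be called. A low probability thus says little about a change of that smaller size. At a probability of 0.9 again 0 passed, against 0.135% of all variations and 0.0767% of binary exon-skipping ones. At a probability of 0.5, 6 passed (0.155%), 4 with the long-exon form higher and 2 with it lower in tau aggregate cells, against 0.39% of all variations and 0.266% of binary exon-skipping ones. In 29 of 3859 the main site, the one with a PSI above 0.5, was a different one in the 2 groups, and 3830 had the same main site. A small move across 0.5 is enough to count here, and 9 of the 29 had an expected change of at least 0.1.

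By size alone, 65 variations (1.68%) in 65 genes had an expected change of at least 0.1, where 2.69% of all variations and 2.01% of binary exon-skipping ones did. Variations with more junctions have more chances to reach that size, so exon skipping is the nearer comparison. The long-exon form was higher in tau aggregate cells in 30 and lower in 35. The median expected change over all variations of this kind was 0.0, and 2763 of them (71.6%) had an expected change under 0.01. All 65 were among the 868 whose less used site reached 0.1 in a group (7.49%). That filter takes the higher of both groups, so a PSI difference of 0.1 is enough to pass it. Among binary exon-skipping variations with the same minimum 10.4% had an expected change of at least 0.1 and 0.37% were called. In both kinds the filter depends on the change itself, and the difference between these shares was not tested.

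**Figure D3:**
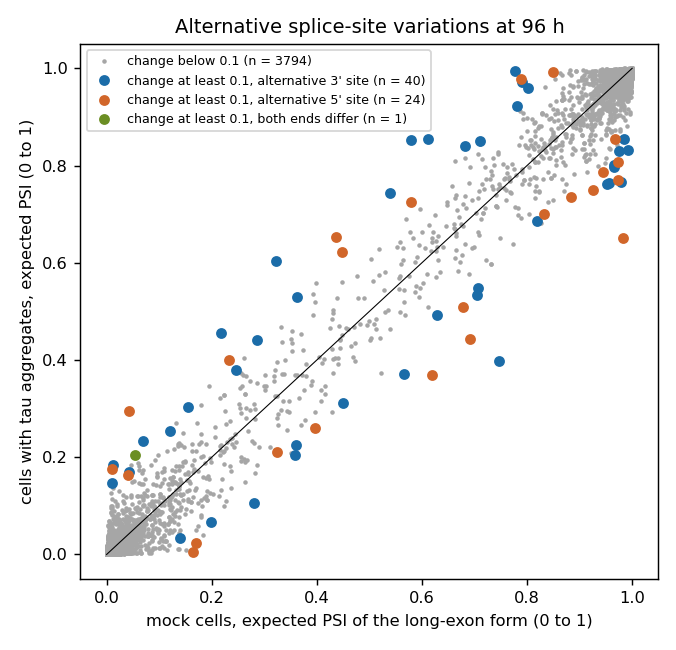
Expected PSI of the long-exon form in cells with tau aggregates (vertical axis) against mock cells (horizontal axis), 1 point per variation; the line marks equal values. The 65 coloured points have an expected change of at least 0.1 (40 at 3′ sites, 24 at 5′ sites, 1 with both ends different), and the other 3794 are grey.

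**Figure D4:**
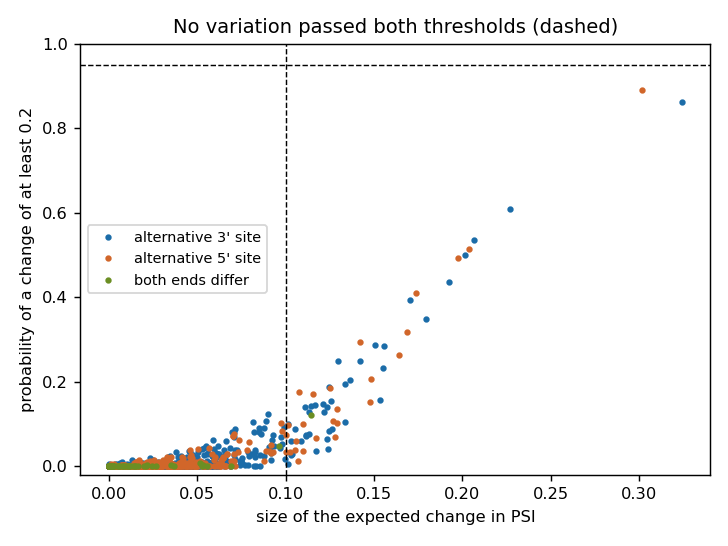
Probability of a change in PSI of at least 0.2 (vertical axis) against the size of the expected change (horizontal axis), 1 point per variation, from the authors' deposited table. Dashed lines mark 0.95 and 0.1; the highest point is at a probability of 0.892.

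The variations with the largest expected changes were read 1 by 1, and none of them meets the call. ZNF100, a KRAB zinc finger protein of the kind that binds DNA and represses transcription, had the largest. It lies on the minus strand of chromosome 19, where the base 21744941 at the end of 1 exon was joined to base 21744115 or, 3 bases further, to base 21744112 (hg38). The upstream site had a PSI of 0.397 in tau aggregate cells and 0.747 in mock cells, so the main site was not the same in the groups. The expected change in the authors' deposited table was -0.324 with a probability of 0.862. The sequence of zinc finger genes is shared in part between family members, and whether reads were split among them was not tested.

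The highest probability belonged to a gene for which the files give no symbol. Its 5′ sites lie 4 bases apart, and the downstream one had a PSI of 0.65 in tau aggregate cells and 0.982 in mock cells. The expected change in the authors' deposited table was -0.302.

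Among 3′ sites 3 bases apart, 11 of 378 (2.91%) had an expected change of at least 0.1, with the upstream site higher in 6 and lower in 5. PDE4DIP, a scaffold protein of the centrosome and Golgi also called myomegalin, had 0.853 in tau aggregate cells and 0.579 in mock cells. Its upstream and downstream acceptors are bases 149003611 and 149003614 of chromosome 1, plus strand (hg38), in a part of that chromosome with copies of this gene. ZNF181, another zinc finger gene, had 0.603 in tau aggregate cells and 0.322 in mock cells. The probabilities in the authors' deposited table were 0.608 for PDE4DIP and 0.501 for ZNF181.

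Both directions occurred among the other genes of this spacing. The upstream site was higher in FOXN4, a forkhead transcription factor (0.455 in tau aggregate cells, 0.218 in mock cells), in ZNF302 (0.253 in tau aggregate cells, 0.120 in mock cells) and in 2 genes with no symbol or only a clone name. It was lower in HECTD4, a HECT-domain protein (0.372 in tau aggregate cells, 0.565 in mock cells), in the ephrin receptor EPHA3 (0.764 in tau aggregate cells, 0.955 in mock cells), in BEND7 (0.205 in tau aggregate cells, 0.358 in mock cells) and in SETDB1, a histone H3 lysine methyltransferase that KRAB zinc finger proteins bring to DNA through TRIM28 (0.685 in tau aggregate cells, 0.818 in mock cells). In the authors' deposited table the probabilities of the named genes lay between 0.0591 for SETDB1 and 0.393 for FOXN4. Some genes with the upstream site higher look alike. ZNF302 and ZNF181 both lie on chromosome 19, and the shorter intron of each spans 254 bases. The gene with a clone name is a pseudogene whose shorter intron spans 568 bases, as in PDE4DIP. Whether reads were shared within these pairs of genes was not tested.

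In 4 genes, 2 variations each had an expected change of at least 0.05. PITPNM1 and TMEM131L each held a pair of NAGNAG-spaced variations that lay on the same side, a gene with no symbol held a pair that lay on opposite sides, and for WASHC2C 1 of the pair has introns of equal length and no defined long-exon form. In PITPNM1, a phosphatidylinositol transfer protein, the upstream sites had 0.710 and 0.963 in tau aggregate cells and 0.596 and 0.887 in mock cells. In TMEM131L they had 0.815 and 0.823 in tau aggregate cells and 0.681 and 0.706 in mock cells. The expected changes in the authors' deposited table were 0.0825 and 0.0619 for PITPNM1 and 0.0705 and 0.0915 for TMEM131L, all under 0.1. PITPNM1 and TMEM131L were picked after their values were seen, and variations in 1 gene share their RNA.

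Other 3′ site pairs gave 29 of the 40 large differences at 3′ sites. ENOX2, a cell-surface NADH oxidase on chromosome X, has sites 6 bases apart, at bases 130637410 and 130637404 (hg38, minus strand). Its upstream site had 0.854 in tau aggregate cells and 0.611 in mock cells, and the probability in the authors' deposited table was 0.536. CASKIN1, a synaptic scaffold that binds CASK, used the upstream of 2 sites 44 bases apart almost alone in tau aggregate cells (0.994) and less in mock cells (0.777). MRPL9, a protein of the mitochondrial ribosome and the gene with the highest 24 h level among the 15 of the 20 largest differences that had one, had 0.959 in tau aggregate cells and 0.801 in mock cells at a pair 150 bases apart. In the opposite direction, SERAC1, needed for phosphatidylglycerol remodelling in mitochondria, had 0.763 in tau aggregate cells and 0.953 in mock cells, and PEX7, the receptor that carries a class of enzymes into peroxisomes, had 0.106 in tau aggregate cells and 0.281 in mock cells.

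Further 3′ pairs beyond 3 bases included regulators of transcription and RNA. FOXP4, a forkhead transcription factor, had 0.529 in tau aggregate cells and 0.362 in mock cells. PAN2, a subunit of a poly(A) tail deadenylase, had 0.169 in tau aggregate cells and 0.043 in mock cells, and PROX1, a homeobox transcription factor, had 0.184 in tau aggregate cells and 0.012 in mock cells. TRMT13, a tRNA methyltransferase, had 0.533 in tau aggregate cells and 0.705 in mock cells. UVSSA, a factor of transcription-coupled DNA repair, had 0.226 in tau aggregate cells and 0.360 in mock cells. The kinase MINK1 had 0.548 in tau aggregate cells and 0.707 in mock cells, and CNTROB, a centriole protein, had 0.830 in tau aggregate cells and 0.975 in mock cells. None of these 7 had a probability above 0.196 in the authors' deposited table.

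At 5′ sites, 24 of 1307 (1.84%) had an expected change of at least 0.1, with the downstream site, which gives the longer exon, higher in 9 and lower in 15. GIPC3, a PDZ-domain protein required for hearing, had the largest among named genes. Its 5′ sites are bases 3589925 and 3589912 of chromosome 19, plus strand (hg38), and the downstream one had 0.296 in tau aggregate cells and 0.043 in mock cells, with a probability in the authors' deposited table of 0.515. ADGRV1, a large adhesion receptor linked to Usher syndrome, had 0.444 in tau aggregate cells and 0.692 in mock cells at sites 83 bases apart, so that the main site was not the same in the groups. SPACA6, a sperm protein of egg fusion, had 0.370 in tau aggregate cells and 0.620 in mock cells at sites 2 bases apart.

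The remaining 5′ pairs again pointed both ways. ALG10B, a glucosyltransferase of N-glycan assembly, had 0.979 in tau aggregate cells and 0.789 in mock cells, and PARP3, an ADP-ribosyltransferase of DNA repair, had 0.175 in tau aggregate cells and 0.011 in mock cells. CENPI, a centromere protein, had 0.725 in tau aggregate cells and 0.580 in mock cells. The downstream site was lower in ATR, the checkpoint kinase (0.854 in tau aggregate cells, 0.968 in mock cells), in KAT2A, a histone acetyltransferase (0.211 in tau aggregate cells, 0.325 in mock cells), in HDAC7, a histone deacetylase (0.005 in tau aggregate cells, 0.165 in mock cells), and in CEP83, a centriole appendage protein (0.024 in tau aggregate cells, 0.171 in mock cells). Their probabilities in the authors' deposited table were 0.265 or lower. Of the variations with both ends different, SEMA6B, a semaphorin, alone reached 0.1, with 0.205 in tau aggregate cells and 0.054 in mock cells.

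**Figure D5:**
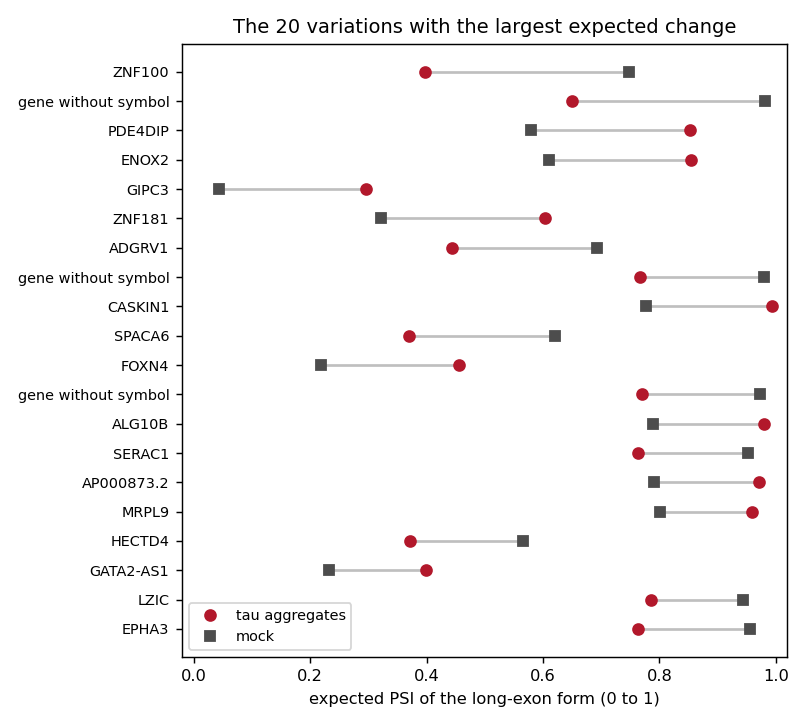
Expected PSI of the long-exon form (horizontal axis) in cells with tau aggregates (red circles) and mock cells (grey squares) for the 20 variations with the largest expected change, the largest at the top. ZNF100 has 0.397 with aggregates against 0.747 in mock cells, and GIPC3 0.296 against 0.043.

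The genes with the larger differences tended to be less expressed. In the 24 h total RNA of homogenate-treated cells, which are neither the mock nor the 96 h cells, the median level was 6.63 FPKM for the 52 of 65 variations whose gene had a value, and 13.4 FPKM for 3341 variations under 0.1. Among variations under 0.1 whose less used site reached 0.1, it was 10.45 FPKM (691 with a value). ZNF181 was at 1.94 FPKM, GIPC3 at 2.47 FPKM and ZNF100 at 5.16 FPKM, against 50.7 FPKM for MRPL9. The part of expression level in the size of these differences was not tested. Another variation that passed the call was present in 0 of the 65 genes, in 21 of all 2816 host genes (0.746%) and in 62 of 10708 other genes (0.579%); at such shares 0 of 65 is no contrast.

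Alternative sites in genes of the splicing machinery, of tau and microtubules, of chaperones and stress responses, and in genes known for close splice sites were looked at by lists. Over these 10 lists with 218 genes in all, 43 genes held 55 variations. Of these, 0 were called, 0 had an expected change of at least 0.1 and 2 had one of at least 0.05, where 249 of all 3859 (6.45%) did. The median size of the expected change was 0.00156 in the lists and 0.00075 over all variations of this kind. Symbols were given for 2581 of the 2816 host genes, and a listed gene among the others would be missed by a match on symbols.

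Among SR proteins and speckle factors, 9 of 33 genes held 10 variations, and 0 reached 0.05. The largest was in SRSF11, an SR-related splicing factor, whose upstream NAGNAG-spaced site had 0.630 in tau aggregate cells and 0.695 in mock cells. SON, a large scaffold protein of nuclear speckles, had 0.442 in tau aggregate cells and 0.502 in mock cells at 3′ sites 53 bases apart. SRRM1, a speckle coactivator of splicing, had 0.843 in tau aggregate cells and 0.785 in mock cells, and SCAF4, which binds the tail of RNA polymerase II, had 0.581 in tau aggregate cells and 0.634 in mock cells. TRA2A, a relative of the SR proteins, had 0.956 in tau aggregate cells and 0.986 in mock cells. The expected changes in the authors' deposited table were -0.0498 for SRSF11, -0.0453 for SON and 0.0395 for SRRM1.

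Of 13 genes listed for U1, LUC7-like factors and the 5′ splice site, 6 held 10 variations. SNRNP70, the U1 70K protein that aggregates in Alzheimer's disease brain, had 0.801 in tau aggregate cells and 0.738 in mock cells at sites 27 bases apart. Of 27 genes listed for U2AF, SF3 and the 3′ splice site, 5 held 7 variations. The largest was in CACTIN, with 0.144 in tau aggregate cells and 0.089 in mock cells. In the same list SF3B2 had 0.944 in tau aggregate cells and 0.946 in mock cells.

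In the hnRNP list, 3 of 32 genes held 4 variations. EWSR1, an RNA-binding protein of the FET family, had a variation with both ends different at 0.148 in tau aggregate cells and 0.062 in mock cells, with an expected change of 0.0691 in the authors' deposited table. HNRNPA3 had 0.695 in tau aggregate cells and 0.671 in mock cells. Of the 16 kinases that phosphorylate SR proteins or related factors, CLK2 had 0.639 in tau aggregate cells and 0.682 in mock cells and CDK11B had 0.104 in tau aggregate cells and 0.101 in mock cells. Of the 15 genes of nonsense-mediated decay and the exon junction complex, 5 held 7 variations, with expected changes from -0.00136 to 0.00982. UPF1, its central helicase, had 0.189 in tau aggregate cells and 0.187 in mock cells.

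In tau and its partners, 6 of 25 genes held 6 variations, with expected changes of -0.0168 to 0.00158. MARK1 and MARK2, kinases that phosphorylate tau in its repeat domain, had NAGNAG-spaced sites at 0.042 and 0.105 in tau aggregate cells and 0.067 and 0.106 in mock cells. MARK2 also held 1 called variation of another kind. MAP1LC3B, the autophagosome protein LC3B, had 0.951 in tau aggregate cells and 0.958 in mock cells, and MAP7D1, a microtubule-binding protein, had 0.151 in tau aggregate cells and 0.157 in mock cells. Chaperones held 2 (DNAJC5 and HSPA8), the stress-response list 1 (EIF2AK1, with 0.855 in tau aggregate cells and 0.851 in mock cells) and the list of genes known for close splice sites 7, with FGFR1 at 0.905 in tau aggregate cells and 0.887 in mock cells for 5′ sites 6 bases apart.

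Of 85 variations with a mock PSI of 0.4 to 0.6, 71 had an expected change under 0.05 and 7 had one of at least 0.1. Large differences were thus a larger share of them than of all 3859, of which 6.45% reached 0.05 and 1.68% reached 0.1. Most of the 3859 lay near 0 or 1, with 1230 under 0.05 and 1488 at 0.95 or above in mock cells. Of the 343 with a mock PSI of 0.2 to 0.8, which include the 85, 25.4% reached 0.05 and 9.33% reached 0.1. Both shares were larger than among the 85. The 3 with the smallest expected change were taken as examples. NFKB2, a subunit of NF-kappaB, had 0.407 in tau aggregate cells and 0.404 in mock cells at 3′ sites 3 bases apart. POLM, a DNA polymerase of end joining, had 0.441 in tau aggregate cells and 0.444 in mock cells at sites 53 bases apart. The pseudogene PKD1P6 had 0.423 in tau aggregate cells and 0.428 in mock cells at 5′ sites 13 bases apart. It has near-identical copies, and whether its reads were split among them was not tested.

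The introns behind these junctions were also in the authors' deposited intron table, which gives reads inside introns of the same 6 libraries, so the readouts share their RNA. Of 3859 variations 2340 had an intron with the same ends there, and 478 of these had an adjusted p. The intron matched was the shorter one in 1796 of the 2340 and the longer one in 544. Of the 478, 2 introns were higher in tau aggregate cells at an adjusted p under 0.05 and 0 were lower, where 1.5% of 82091 introns with an adjusted p were higher and 0.146% lower. The 2 were in KHDC4, an RNA-binding splicing factor, with a log2 change of 1.31 ± 0.33 in the authors' deposited table (SE; adjusted p = 0.00985), and in TWNK, the mitochondrial DNA helicase, with 0.99 ± 0.29 in the same table (SE; adjusted p = 0.0444). In KHDC4 the upstream 3′ site had 0.997 in tau aggregate cells and 0.979 in mock cells, and in TWNK the downstream 5′ site had 0.084 in tau aggregate cells and 0.046 in mock cells. The TWNK intron matched was the longer one, which holds the 120 bases that are exon when the downstream site is used. Whether reads over these bases entered both values was not tested. Of the 65 variations with the larger differences, 33 had such an intron, 9 of these had an adjusted p and 0 were under 0.05.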

How the data were processed

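RNA of HEK293 biosensor cells with tau aggregates and of mock-transfected cells (3 libraries each) was sequenced at 96 h. The submitters' processing notes name STAR 2.6.0c as a tool and hg38 (GRCh38) as the build; for MAJIQ and iREAD, no version or setting was found in the labels or headers, nor was the model behind the intron p-values. The authors deposited other values, per the file headers: expected PSI per group and junction, expected change, and the probability of a change of at least 0.2. A column for the probability of changes up to 0.05 was not used, since it was low even where the expected change was near 0. In the intron table the authors deposited a mean normalized count (signal), a log2 change with its standard error, and an adjusted p-value. Its direction is not stated; 448 of 474 called introns had the sign of tau aggregate minus mock cells in the MAJIQ table. FPKM values deposited by the authors gave gene levels at 24 h, for symbols listed once.

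Strand, class and distance were derived from junction coordinates (Python 3.11.15, pandas 2.3.3), a step tested on simulated data; the class equalled the table's in 3859 of 3859. The direction is undefined for 21 variations with both ends different and equal introns. A call took an expected change of at least 0.1 and a probability of at least 0.95 for a change of at least 0.2. No test of samples was possible. The variations and lists were chosen with earlier results of these data known. As no variation was called, the naming rule gave the 5 largest changes, list members with a change of at least 0.1 (0) and 3 evenly used pairs; all other genes were named after their values were seen. Depth at 96 h is unknown.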

Additional observations from a re-analysis of the deposited data

How the results depend on the processing

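The count of 0 called variations in each direction held at a probability of 0.9. Counting each junction pair once changed nothing, since no pair occurred more than once under the same gene ID. Pairs repeated under different gene IDs were not looked for. Some variations share their distance, PSI values and expected change to the last digit. Examples are 5′ sites 128 bases apart at 0.597 in tau aggregate cells and 0.731 in mock cells. The counts of variations may thus include some pairs more than once. The settings with a less used site of at least 0.05 (1442 variations) and with 1 differing end only (3670 variations) keep a part of the same variations. Their count of called variations could only be 0. At a probability of 0.5, and likewise at an expected change of 0.2 with no probability asked, 4 were higher and 2 lower. At an expected change of 0.1 with no probability asked, 30 were higher and 35 lower. The median expected change was 0.0, and -0.000949 with a less used site of at least 0.05. Leaving out junctions absent from the annotation was not run, since the table used here has no such column, and leaving out libraries was not run, since it has 1 value per group. No paired analysis was possible because the table carries no replicate numbers. The number of reads behind each PSI is not known, so the precision of single values could not be given.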
